A study of Homo sapiens with 18 samples.

Results

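The nuclear lamina is a meshwork of lamin filaments under the inner nuclear membrane, and the proteins described here build it or tie it to chromatin. LMNB1 and LMNB2 encode the B-type lamins and LMNA encodes lamins A and C. LBR, the lamin B receptor, TMPO, which encodes the lamina-associated polypeptide 2 proteins, EMD, which encodes emerin, and LEMD3, which encodes MAN1, are found at the inner nuclear membrane or the nuclear interior, and BANF1 encodes a small DNA-binding protein that bridges chromatin to the LEM domain shared by the TMPO, EMD and LEMD3 products. TMPO-AS1 is a long non-coding RNA transcribed from the opposite strand at the start of TMPO. Loss of B-type lamin, mainly lamin B1, is a known mark of cells that have left the cell cycle into senescence or a senescence-like arrest, whereas lamins A and C are made by most differentiated cells whether or not they divide. These 9 genes were picked by name from the 60656 gene rows of the count table, as lamins and inner nuclear membrane genes. The rule uses no measured value, but the genes were chosen with earlier results of these data known. All 9 rows were found.

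Messenger RNA was sequenced from its 3′ ends in 18 libraries from the established oestrogen receptor-positive breast cancer lines CAMA-1 and ZR-75-1, which the labels call wild-type. Cells of each line received abemaciclib at 500 nM, palbociclib at 500 nM or the same volume of the solvent DMSO, each for 5 days. Both drugs inhibit CDK4 and CDK6, the kinases that phosphorylate the retinoblastoma protein (Rb) at the entry to S phase. Each of the 6 combinations of line and treatment had 3 libraries, which the study describes as separate cultures in work done a single time, so p-values measure the spread between those cultures. Levels are normalised counts in CPM, which sets each library to a common total, scaled across the 18 libraries by edgeR's trimmed mean of M-values (TMM). Log2 fold changes are given ± SE and come from edgeR's quasi-likelihood test with Benjamini-Hochberg adjusted p over all genes tested, and a gene was called at an adjusted p under 0.05. The kit reads mainly transcript ends, so a level of one gene was not set against that of another except as a ratio followed within libraries.

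Library totals ran from 2308442 to 4146549 counts, so that 3 counts stood for 0.723 to 1.30 CPM before TMM scaling. The 7 luminal markers sought (ESR1, GATA3, FOXA1, KRT8, KRT18, KRT19 and EPCAM) were all detected in every group, with a summed level of 4648 to 6679 CPM in the 18 libraries. Summed levels were 0.664 to 11.1 CPM for 4 basal markers, 14.4 to 33.9 for 4 fibroblast markers, and at most 1.34 for 3 endothelial and 0.937 for 3 immune markers. KRT5, PDGFRB, COL1A2, CDH5 and CD3E were at 0 counts in all groups. In CAMA-1 the luminal sum moved with treatment, from 4648 to 4941 CPM with DMSO to 6291 to 6399 with abemaciclib and 6609 to 6679 with palbociclib, and the basal sum from 1.15 to 3.19 CPM to 7.41 to 10.7 and 5.69 to 6.26. In ZR-75-1 the luminal sum was 5433 to 5649 CPM with DMSO, 6302 to 6525 with abemaciclib and 4905 to 5255 with palbociclib, and the basal sum 4.84 to 11.1, 0.664 to 1.97 and 2.24 to 4.71 CPM, all of it from 1 of the 4 markers. The share of counts from mitochondrially encoded genes in CAMA-1 averaged 15.7% ± 0.87 for DMSO, 24.8% ± 1.37 for abemaciclib and 23.6% ± 1.15 for palbociclib (SD, n = 3), and in ZR-75-1 it lay between 18.98% and 20.2% on average. The part of these shifts in the results was not tested beyond a fit without the mitochondrially encoded genes, under which the calls of the 9 genes in the within-line comparisons were the same. In bulk RNA, fewer cells making a transcript and less of it per cell cannot be told apart.

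The 9 genes lie on 6 chromosomes. On GRCh38 (GENCODE release 44), LMNB1 (ENSG00000113368.12) is at chr5:126776623-126837020 on the plus strand and LMNB2 (ENSG00000176619.13) at chr19:2427638-2456959 on the minus strand. LMNA (ENSG00000160789.21) is at chr1:156082573-156140081, plus, and LBR (ENSG00000143815.15) at chr1:225401502-225428925, minus. EMD (ENSG00000102119.11) is at chrX:154379273-154381574, BANF1 (ENSG00000175334.8) at chr11:66002228-66004149 and LEMD3 (ENSG00000174106.3) at chr12:65169583-65248355, all on the plus strand. TMPO (ENSG00000120802.14) at chr12:98515579-98550351, plus, and TMPO-AS1 (ENSG00000257167.2) at chr12:98512973-98516422, minus, overlap head to head over 844 bases. Whether reads were counted by strand was not stated, so reads inside that overlap could have gone to either gene or to neither. The shared stretch is 33929 bases from the 3′ end of TMPO and 2606 bases from that of TMPO-AS1, on the genome.

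Promoter windows of the genes are shown for reference, since several of the 9 fell together and promoters of genes of the cell cycle often carry E2F sites or the CHR element with a CCAAT box. Windows run from 250 bases before to 50 after an annotated start (RefSeq, GRCh38.p14), and all 9 genes matched, with 13 windows. The words sought on both strands were TTTCCCGC, TTTCGCGC, TTTGCCGC and TTTGGCGC for E2F, TTTGAA and TTTAAA for the CHR, and CCAAT. At least 1 CHR word was found in a window of 6 of the 9 genes and in 8 of the 13 windows, CCAAT in 5 genes and 6 windows, and an E2F word in 2 genes (LMNA and LEMD3) and 2 windows. Among all 35116 windows of this length, 24% held a CHR word, 34.6% held CCAAT and 3.31% an E2F word. These shares are per window and have no counterpart per gene. The TMPO windows overlap and hold the same words, so the window counts include them more than once. The E2F words were in windows of LMNA, which moved little, and of LEMD3, which was not called with either drug against DMSO. CHR words were in windows of LMNA and BANF1, which also moved little, and of LMNB1, LMNB2, LBR and TMPO, which fell. Whether any of the words has a part in the responses was not tested, and a match is a description of letters, not a binding site. Windows are shown for LMNB1 (chr5:126776886-126777185, plus, the second of its 2 windows), TMPO (chr12:98515323-98515622, plus), TMPO-AS1 (chr12:98516177-98516476, minus), LBR (chr1:225428772-225429071, minus) and, as a gene whose level moved little, LMNA (chr1:156082323-156082622, plus). Each is written 5′ to 3′ on the strand of its gene, and capitals mark the words found.
LMNB1: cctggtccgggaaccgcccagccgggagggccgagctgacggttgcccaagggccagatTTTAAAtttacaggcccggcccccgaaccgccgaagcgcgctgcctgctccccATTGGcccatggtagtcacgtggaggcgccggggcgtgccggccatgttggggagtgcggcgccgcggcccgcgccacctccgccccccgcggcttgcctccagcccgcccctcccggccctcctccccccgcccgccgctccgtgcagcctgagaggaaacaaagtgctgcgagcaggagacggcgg
TMPO: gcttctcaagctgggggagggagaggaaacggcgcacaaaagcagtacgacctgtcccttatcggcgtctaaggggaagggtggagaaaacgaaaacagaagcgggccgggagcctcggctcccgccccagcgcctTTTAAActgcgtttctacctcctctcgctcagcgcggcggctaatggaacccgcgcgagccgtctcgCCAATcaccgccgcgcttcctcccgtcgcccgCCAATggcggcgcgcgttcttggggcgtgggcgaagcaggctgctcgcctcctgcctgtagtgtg
TMPO-AS1: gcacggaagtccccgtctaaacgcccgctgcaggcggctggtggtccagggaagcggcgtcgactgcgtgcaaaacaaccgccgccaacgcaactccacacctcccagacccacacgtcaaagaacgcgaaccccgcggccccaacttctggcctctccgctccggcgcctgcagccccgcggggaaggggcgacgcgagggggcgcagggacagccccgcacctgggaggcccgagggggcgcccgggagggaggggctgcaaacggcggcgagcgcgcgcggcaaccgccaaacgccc
LBR: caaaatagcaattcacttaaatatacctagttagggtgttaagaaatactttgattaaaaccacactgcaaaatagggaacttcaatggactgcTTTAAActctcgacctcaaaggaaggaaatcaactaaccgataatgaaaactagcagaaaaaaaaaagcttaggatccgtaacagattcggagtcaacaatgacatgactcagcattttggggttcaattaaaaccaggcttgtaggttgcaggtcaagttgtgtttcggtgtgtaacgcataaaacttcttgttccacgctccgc
LMNA: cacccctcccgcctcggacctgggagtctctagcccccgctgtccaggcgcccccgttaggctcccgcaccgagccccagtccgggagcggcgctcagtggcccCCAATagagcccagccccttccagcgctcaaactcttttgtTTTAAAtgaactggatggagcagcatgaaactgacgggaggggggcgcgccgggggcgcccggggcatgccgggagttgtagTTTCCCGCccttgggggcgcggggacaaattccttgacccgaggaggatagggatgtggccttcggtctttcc
The LMNB1 window held TTTAAA starting 191 bases before the start and CCAAT, on the other strand, 138 before it. The TMPO window held TTTAAA at 114 and CCAAT at 47 and 15 bases before the start, LBR held TTTAAA alone at 156, and the TMPO-AS1 window held none of the words. LMNA held TTTCCCGC at 23, TTTAAA at 105 and CCAAT at 146 bases before the start.

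LMNB1, LMNB2, LBR and TMPO fell with both inhibitors in both lines, and none of the 9 genes rose in any of these 4 comparisons. With abemaciclib in CAMA-1, 7 of the 9 were called lower, where 20.1% of the 11053 genes tested were called lower and 20.3% higher. With palbociclib 7 of 9 were lower in CAMA-1, against 18.7% of all genes lower and 18.4% higher. In ZR-75-1, 7 of 9 were lower with abemaciclib, against 18.3% of the 11017 genes tested lower and 17.9% higher, and 6 of 9 with palbociclib, against 13.4% lower and 14.5% higher. The count of genes higher was 0 of 9 in each by edgeR, also at an unadjusted p under 0.05, and 0 of 9 by DESeq2 on both counts. The median log2 fold change of the 9 was −1.20 under abemaciclib and −0.996 under palbociclib for CAMA-1, then −1.47 and −0.54 for ZR-75-1, while that of all genes tested lay between −0.01 and 0.01. TMPO-AS1 passed the filter on low counts only through its DMSO libraries; without it, 6, 6, 6 and 5 of 8 genes were called lower, with medians of −0.84, −0.78, −0.89 and −0.40. Every drug library lay below every DMSO library for 7 of 9 genes with each drug in CAMA-1 (22.4% and 21.5% of all genes) and in ZR-75-1 for 7 under abemaciclib and 8 under palbociclib (22.9% and 19.5%). Each of these counts includes TMPO-AS1, whose way past the filter through its DMSO libraries alone favours such a separation. The abemaciclib and palbociclib comparisons of a line share its DMSO libraries and are not independent of each other. Since the 9 genes were chosen with earlier results of these data known, the shares of all genes are given for scale only.

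**Figure D1:**
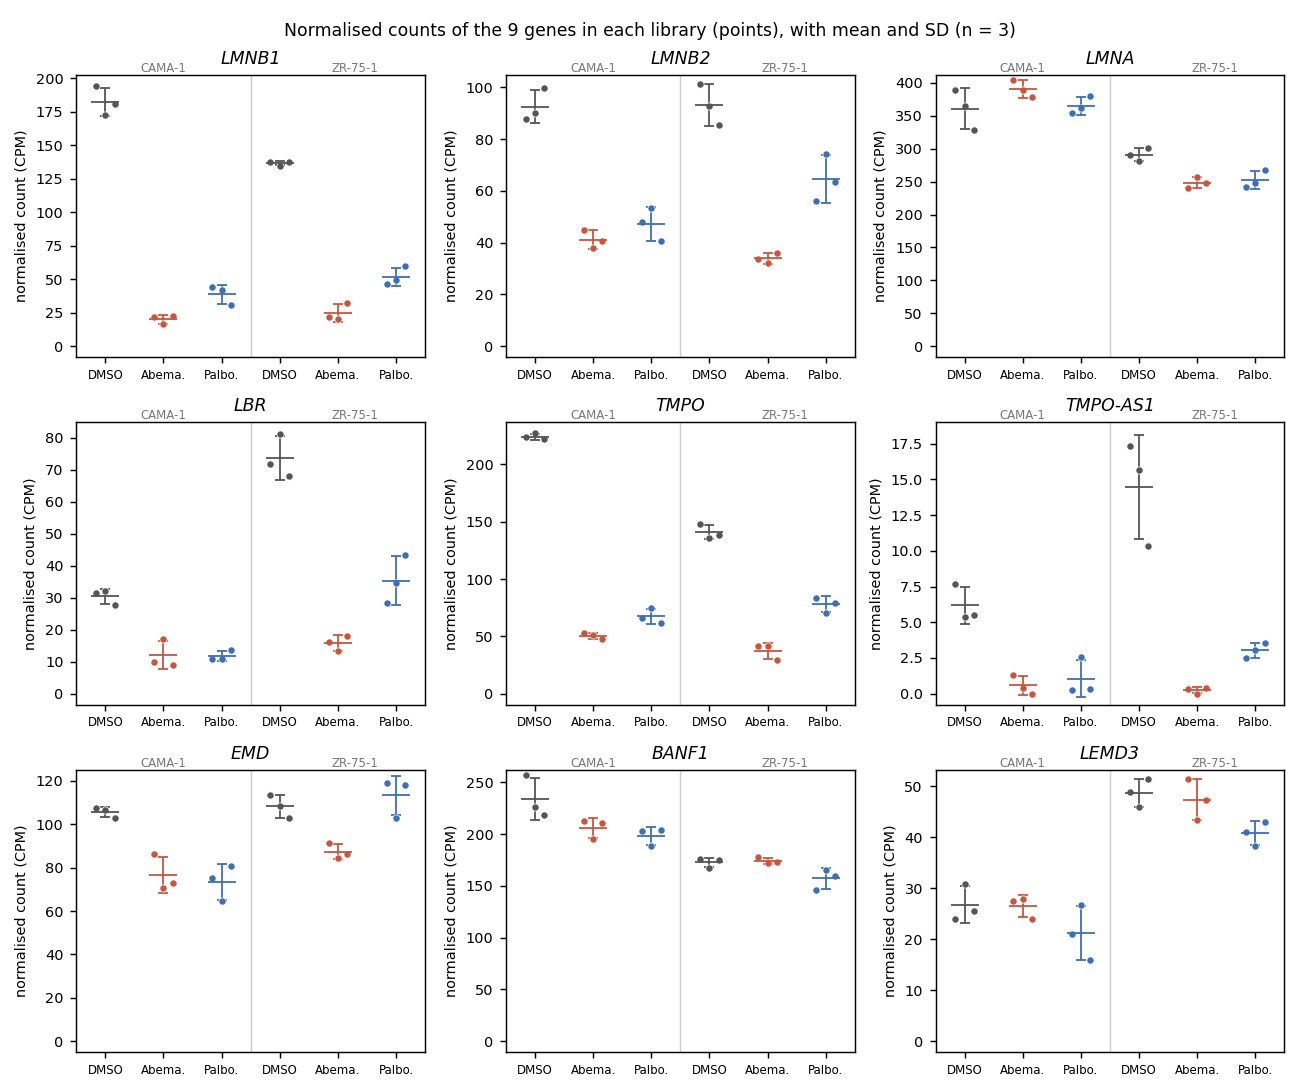
Normalised counts (CPM, linear axes) of the 9 genes in the 6 groups, with 1 point per library and the mean ± SD of 3 libraries (Abema., abemaciclib; Palbo., palbociclib). LMNB1 lies at 172 to 194 CPM in CAMA-1 with DMSO and at 16.3 to 22.8 with abemaciclib, whereas LMNA lies between 329 and 404 in all 9 CAMA-1 libraries.

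LMNB1 had the largest falls among the lamins. In CAMA-1 its level was 194, 172 and 180.4 CPM in the DMSO libraries, 21.4, 16.3 and 22.8 under abemaciclib and 43.8, 41.5 and 30.6 under palbociclib. The 3 groups did not overlap, with the abemaciclib libraries lowest. Relative to DMSO it was 9.07-fold lower with abemaciclib (log2 fold change −3.18 ± 0.13, adjusted p = 9.53e-24) and 4.76-fold lower with palbociclib (−2.25 ± 0.11, adjusted p = 2.92e-20). In ZR-75-1 the DMSO libraries had 138, 135 and 138 CPM, those under abemaciclib 21.6, 20.1 and 32.4 and those under palbociclib 46.3, 49.2 and 59.5. Here too the groups stood apart, with the third abemaciclib library above the other two. The fall was 5.61-fold with abemaciclib (−2.49 ± 0.13, adjusted p = 7.26e-23) and 2.65-fold with palbociclib (−1.41 ± 0.12, adjusted p = 8.21e-15). Ordered by mean, the groups ran from CAMA-1 with DMSO (182 CPM) through ZR-75-1 with DMSO (137), ZR-75-1 with palbociclib (51.6), CAMA-1 with palbociclib (38.7) and ZR-75-1 with abemaciclib (24.7) to CAMA-1 with abemaciclib (20.2), and neighbouring groups overlapped only among the last 3 in this order.

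LMNB2, the second B-type lamin gene, had smaller fold changes than LMNB1. Its CAMA-1 levels were 87.8, 90.1 and 100 CPM with DMSO, 45.0, 37.8 and 40.6 under abemaciclib and 48.1, 53.5 and 40.5 under palbociclib. Both drug groups lay below DMSO and overlapped each other. On the log2 scale LMNB2 changed by −1.20 ± 0.12 with abemaciclib (adjusted p = 3.18e-11), and by −0.996 ± 0.11 with palbociclib (adjusted p = 1.66e-09, edgeR). In ZR-75-1 the libraries had 102, 92.7 and 85.3 CPM with DMSO, 33.8, 32.0 and 35.9 under abemaciclib and 56.1, 74.3 and 63.3 under palbociclib, so that the 3 groups stood apart. These were falls of 2.77-fold (−1.47 ± 0.13, adjusted p = 1.57e-14) and 1.45-fold (−0.54 ± 0.11, adjusted p = 1.77e-04).

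LMNA moved least of the lamins. In CAMA-1 its level was 389.7, 365 and 329 CPM with DMSO, 404, 389 and 378 under abemaciclib and 354, 362 and 380.3 under palbociclib, and the groups overlapped. Neither difference was called: the log2 fold change was 0.08 with abemaciclib (95% interval −0.06 to 0.23, adjusted p = 0.363; −0.04 with library totals alone) and −0.01 with palbociclib (−0.15 to 0.13, adjusted p = 0.909, edgeR). In ZR-75-1 the level was 289.8, 282 and 302 CPM with DMSO, 240.2, 257 and 249 under abemaciclib and 242, 248 and 268 under palbociclib. The drug libraries of ZR-75-1 lay just below the DMSO libraries, by −0.23 ± 0.075 (adjusted p = 0.0105) and −0.21 ± 0.074 (adjusted p = 0.0284) on the log2 scale. The abemaciclib call was lost without DMSO replicate 3 (adjusted p = 0.0532) or abemaciclib replicate 1 (0.0630), and the palbociclib call without DMSO replicate 1 (0.0602) or 3 (0.0975), without palbociclib replicate 1 (0.0884) or 2 (0.0789), and with no filter on low counts (0.0802).

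The unequal movement of the lamins was also followed as ratios of raw counts within each library, which no scaling between libraries can alter. The ratio of LMNB1 to LMNA counts in CAMA-1 was 0.498, 0.472 and 0.549 with DMSO, 0.0530, 0.0419 and 0.0603 under abemaciclib and 0.124, 0.115 and 0.0805 under palbociclib. In ZR-75-1 it was 0.475, 0.478 and 0.456 with DMSO, 0.0898, 0.0784 and 0.130 with abemaciclib and 0.192, 0.198 and 0.222 with palbociclib. DMSO and drug libraries did not overlap in either line. On the log2 scale, with 0.5 added to each count, the ratio differed from that with DMSO by −3.29 for abemaciclib and −2.27 for palbociclib in CAMA-1, and by −2.26 and −1.20 in ZR-75-1. The ratio of LMNB1 to LMNB2 differed from DMSO by −2.01 and −1.28 in CAMA-1, and in ZR-75-1 by −1.04 and −0.87, again with no overlap. The ratio of LMNB2 to LMNA differed by −1.28, −0.99, −1.22 and −0.33 in the same order, and only the palbociclib libraries of ZR-75-1 overlapped with DMSO (0.232, 0.299 and 0.236 against 0.350, 0.329 and 0.283). By exact permutation, two-sided, p was 0.1 for each ratio that did not overlap, the smallest value that 3 against 3 libraries allow, and p = 0.2 for the last; after adjustment over the 16 ratio tests these were 0.123 and 0.229. A ratio shows that the counts of 2 genes changed unequally and not that one of them stayed constant.

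**Figure D2:**
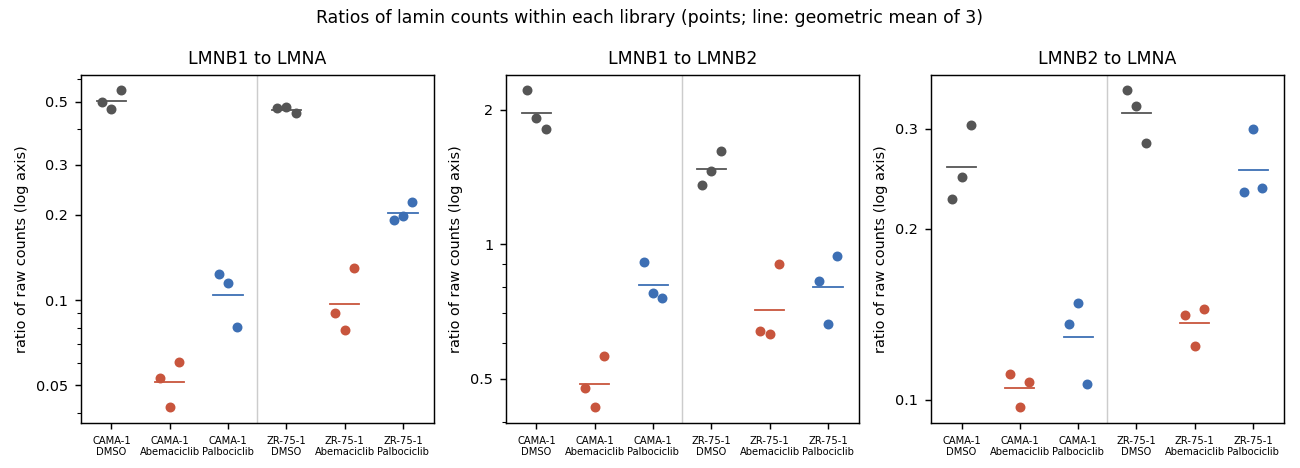
Ratios of raw counts of the 3 lamin genes within each library, on log axes, with 1 point per library and a line at the geometric mean of 3. The LMNB1 to LMNA ratio is 0.456 to 0.549 in the 6 DMSO libraries and 0.0419 to 0.222 in the 12 drug libraries.

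LBR, whose product binds B-type lamins and heterochromatin and also has sterol reductase activity, fell in all 4 comparisons. CAMA-1 libraries had 31.6, 32.2 and 27.8 CPM with DMSO, 10.1, 17.2 and 9.06 under abemaciclib and 10.8, 10.8 and 13.6 under palbociclib. The second abemaciclib library, the one of lowest depth, was the highest of the drug libraries and still below DMSO. LBR thus changed by −1.41 ± 0.21 on the log2 scale for abemaciclib (adjusted p = 6.05e-07), and for palbociclib by −1.41 ± 0.21 (adjusted p = 3.98e-07, edgeR). ZR-75-1 had a higher level to start from, with 71.7, 81.3 and 68.1 CPM in its DMSO libraries, 16.3, 13.2 and 18.2 under abemaciclib and 28.3, 34.6 and 43.3 under palbociclib. The 3 groups did not overlap, and the falls were 4.68-fold (−2.23 ± 0.16, adjusted p = 3.55e-17) and 2.09-fold (−1.06 ± 0.14, adjusted p = 1.92e-08).

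TMPO, the LEM-domain gene with the largest response, stood at 224, 227 and 222 CPM in CAMA-1 with DMSO, 52.7, 51.5 and 47.8 under abemaciclib and 65.9, 74.8 and 61.6 under palbociclib. The groups did not overlap, and the level fell 4.52-fold (−2.18 ± 0.096, adjusted p = 3.50e-22) and 3.39-fold (−1.76 ± 0.091, adjusted p = 1.01e-19). In ZR-75-1 the levels were 148, 136 and 139 CPM with DMSO, 41.5, 41.7 and 29.6 under abemaciclib and 83.9, 70.5 and 79.5 under palbociclib. All 3 groups again stood apart, with falls of 3.74-fold (−1.90 ± 0.12, adjusted p = 2.78e-20) and 1.81-fold (−0.85 ± 0.10, adjusted p = 2.06e-09).

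TMPO-AS1, which passed the filter on low counts only through its DMSO libraries, was rare. Its raw counts in CAMA-1 were 24, 16 and 24 with DMSO, 5, 1 and 0 under abemaciclib and 1, 9 and 1 under palbociclib. In ZR-75-1 they were 53, 51 and 30 with DMSO, 1, 0 and 1 under abemaciclib and 9, 9 and 12 under palbociclib. Every drug library lay below every DMSO library of its line. Because the counts are so low, the size of the fall is given from the summed counts with an exact 95% interval that covers counting error only. The DMSO level was 9.49 times that with abemaciclib in CAMA-1 (4.13 to 26.8) and 5.90 times that with palbociclib (3.08 to 12.4). In ZR-75-1 it was 61.3 times that with abemaciclib, where the 3 libraries held 2 counts in all (16.6 to 512), and 4.81 times that with palbociclib (3.22 to 7.40). The fitted log2 fold change of TMPO-AS1 in CAMA-1 moved with single libraries, from −3.23 to −4.84 without abemaciclib replicate 1 and from −2.55 to −4.31 without palbociclib replicate 2, which held 9 of the 11 counts of its group. The ratio of TMPO-AS1 to TMPO counts also differed from DMSO with both drugs in ZR-75-1, by −3.35 and −1.32 on the log2 scale with no overlap (exact two-sided permutation p = 0.1 each, the smallest possible), and in CAMA-1 by −1.42 and −1.24 with overlap (p = 0.3 and 0.4). With single libraries left out the ratio ranged from −3.85 to −2.72 (the latter without abemaciclib replicate 2) and from −1.53 to −1.14 in ZR-75-1, and from −2.13 to −0.59 and from −2.05 to −0.69 in CAMA-1. The CAMA-1 values rested on single drug libraries: with abemaciclib the ratio was −0.59 without replicate 3 and −2.13 without replicate 1, and under palbociclib −0.69 without replicate 1 and −2.05 without replicate 2.

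EMD fell slightly in 3 of the 4 comparisons. CAMA-1 levels were 107, 106 and 103 CPM with DMSO, 86.3, 70.8 and 72.8 under abemaciclib and 75.1, 64.6 and 80.6 under palbociclib. Both drug groups lay below DMSO (−0.48 ± 0.10, adjusted p = 1.76e-04, and −0.56 ± 0.10, adjusted p = 2.16e-05, edgeR). In ZR-75-1 the levels were 113, 109 and 103 CPM with DMSO, 91.2, 84.4 and 86.4 under abemaciclib and 119, 103 and 118 under palbociclib. Abemaciclib libraries lay below DMSO (−0.32 ± 0.099, adjusted p = 0.00906; 0.0524 without DMSO replicate 1), and palbociclib libraries overlapped with it (0.06, 95% interval −0.13 to 0.26, adjusted p = 0.67).

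BANF1 and LEMD3 had small or uncertain changes. BANF1 in CAMA-1 was at 257, 226 and 218 CPM with DMSO, 213, 195 and 211 under abemaciclib and 203, 189 and 204 under palbociclib. Both drug groups lay below DMSO without overlap, by −0.21 ± 0.078 (adjusted p = 0.0312) and −0.26 ± 0.078 (adjusted p = 0.00616, edgeR) on the log2 scale. These calls did not hold throughout: the first was lost without DMSO replicate 1 (adjusted p = 0.215) or abemaciclib replicate 2 (0.124), with no filter (0.0730), in the fit over 18 libraries (0.0718) and by DESeq2 (0.0571), and the second without DMSO replicate 1 (0.0731). In ZR-75-1 BANF1 was at 176, 167 and 175 CPM with DMSO, 178, 172 and 173 under abemaciclib and 146, 165 and 159.9 under palbociclib, with log2 fold changes of 0.01 (95% interval −0.16 to 0.17) and −0.14 (−0.31 to 0.02), neither called, although the palbociclib libraries all lay below DMSO. LEMD3, whose product also binds receptor-regulated SMAD proteins, had 24.0, 30.8 and 25.5 CPM with DMSO, 27.5, 27.9 and 24.1 under abemaciclib and 20.9, 26.7 and 16.0 under palbociclib in CAMA-1. Its ZR-75-1 libraries had 48.8, 46.0 and 51.5 CPM, 51.4, 43.4 and 47.4 CPM and 41.0, 38.3 and 43.0 CPM in the same order of treatments. LEMD3 was not called in any of the 4 comparisons, with log2 fold changes of −0.04 (−0.40 to 0.31), −0.35 (−0.71 to 0.01), −0.05 (−0.31 to 0.22) and −0.26 (−0.52 to 0.01), in the order abemaciclib and palbociclib in CAMA-1, then in ZR-75-1. Its groups overlapped with DMSO except with palbociclib in ZR-75-1, where all 3 libraries were lower. With palbociclib in CAMA-1 it was called without palbociclib replicate 2 (−0.54, adjusted p = 0.0314) and with library totals in place of TMM (−0.46, 0.0376).

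**Figure D3:**
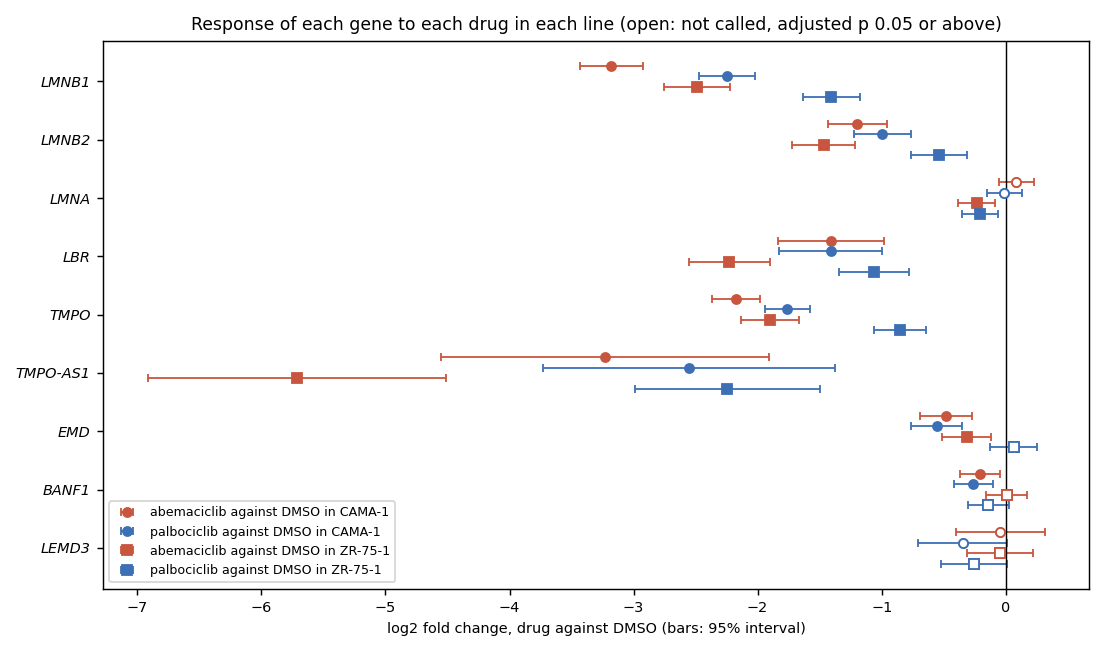
Log2 fold change of each gene with each drug against DMSO in each line, with 95% intervals (circles, CAMA-1; squares, ZR-75-1; open symbols, not called). LMNB1 ranges from −3.18 to −1.41 and TMPO from −2.18 to −0.85, while LMNA lies between −0.23 and 0.08.

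The inhibitors were then compared with each other at their common dose of 500 nM and 5 days, over the 9 genes in each line. In ZR-75-1, 6 of 9 genes were lower with abemaciclib than with palbociclib, where 7.94% of all genes were called lower and 5.23% higher. Without TMPO-AS1, which is in the fit only through its DMSO libraries, 5 of 8 were lower. TMPO-AS1 had 2 counts in all with abemaciclib against 30 under palbociclib, a level 12.8 times as high with the latter (exact 95% interval 3.24 to 110, counting error only). LBR differed by −1.16 ± 0.18 on the log2 scale, LMNB1 by −1.08 ± 0.15, TMPO by −1.05 ± 0.12, LMNB2 by −0.93 ± 0.13 and EMD by −0.38 ± 0.098 (edgeR adjusted p = 1.13e-06, 7.03e-08, 1.41e-09, 2.13e-07 and 0.00458). The libraries of the drugs did not overlap for any of these 5 genes, and each call held when any single library was left out. LMNA, BANF1 and LEMD3 were not called, with differences of −0.03 (−0.18 to 0.12), 0.15 (−0.02 to 0.31) and 0.21 (−0.06 to 0.48), although for BANF1 and LEMD3 every abemaciclib library lay above every palbociclib library. The share of all genes whose libraries separated the drugs was not counted in either line. Overlap or its absence between the drugs therefore cannot be set against a background. In CAMA-1, 2 of 9 genes were lower with abemaciclib, where 1.53% of all genes were called lower and 0.796% higher. LMNB1 differed by −0.93 ± 0.15 (adjusted p = 4.20e-05, edgeR) and TMPO by −0.42 ± 0.11 (adjusted p = 0.019). The TMPO call was lost without abemaciclib replicate 1 (adjusted p = 0.0503), 2 (0.0504) or 3 (0.122) or palbociclib replicate 1 (0.0580) or 2 (0.158). For the other 7 genes the drugs overlapped in CAMA-1; the difference was 0.00 for LBR (95% interval −0.49 to 0.49), −0.20 for LMNB2 (−0.46 to 0.06) and −0.68 for TMPO-AS1 (−2.44 to 1.09). None of the 9 genes was called higher with abemaciclib than with palbociclib in either line, by edgeR or DESeq2, and none was higher at an unadjusted p under 0.05.

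Whether a response differed between the lines was tested in one fit over the 18 libraries and 11987 genes, by taking the CAMA-1 log2 fold change from that of ZR-75-1. These differences are between 2 lines and carry no further than them. The palbociclib response differed for 3 of 9 genes (20.3% of all genes), each with the higher log2 fold change in ZR-75-1: TMPO by 0.88 ± 0.14 (adjusted p = 1.44e-06), LMNB1 by 0.82 ± 0.17 (1.63e-04) and EMD by 0.59 ± 0.14 (0.00103). LMNB2 missed the threshold narrowly, at 0.43 (95% interval 0.10 to 0.75, adjusted p = 0.0519), and was called with RLE scaling (0.0458), with library totals alone (0.0105) and without the mitochondrially encoded genes (0.0301). It was also called without CAMA-1 DMSO replicate 1 or 2, CAMA-1 palbociclib replicate 2, ZR-75-1 DMSO replicate 1 or ZR-75-1 palbociclib replicate 1 or 3 (adjusted p = 0.0180 to 0.0466). With abemaciclib 3 of 9 genes differed as well (18.2% of all genes), and not in one direction. LMNB1 fell less in ZR-75-1 (0.67 ± 0.20, adjusted p = 0.0135; 0.44 with adjusted p = 0.166 without ZR-75-1 abemaciclib replicate 3). LBR fell more in ZR-75-1 (−0.84 ± 0.28, adjusted p = 0.0246), a call lost without CAMA-1 DMSO replicate 3, CAMA-1 abemaciclib replicate 2 (−0.50, adjusted p = 0.267), ZR-75-1 DMSO replicate 2 or ZR-75-1 abemaciclib replicate 1 or 2 (0.0556 at the lowest), and with library totals alone (−0.69, 0.0756). The LMNA response differed by −0.34 ± 0.10 (adjusted p = 0.0122), a call lost without CAMA-1 DMSO replicate 2 or 3 (−0.23, 0.130), CAMA-1 abemaciclib replicate 2 or ZR-75-1 abemaciclib replicate 1 (0.0538 at the lowest), and with library totals alone (−0.19, 0.213). The response of TMPO-AS1 to abemaciclib differed by −2.52 with a 95% interval of −5.00 to −0.05 and was not called (adjusted p = 0.159).

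**Figure D4:**
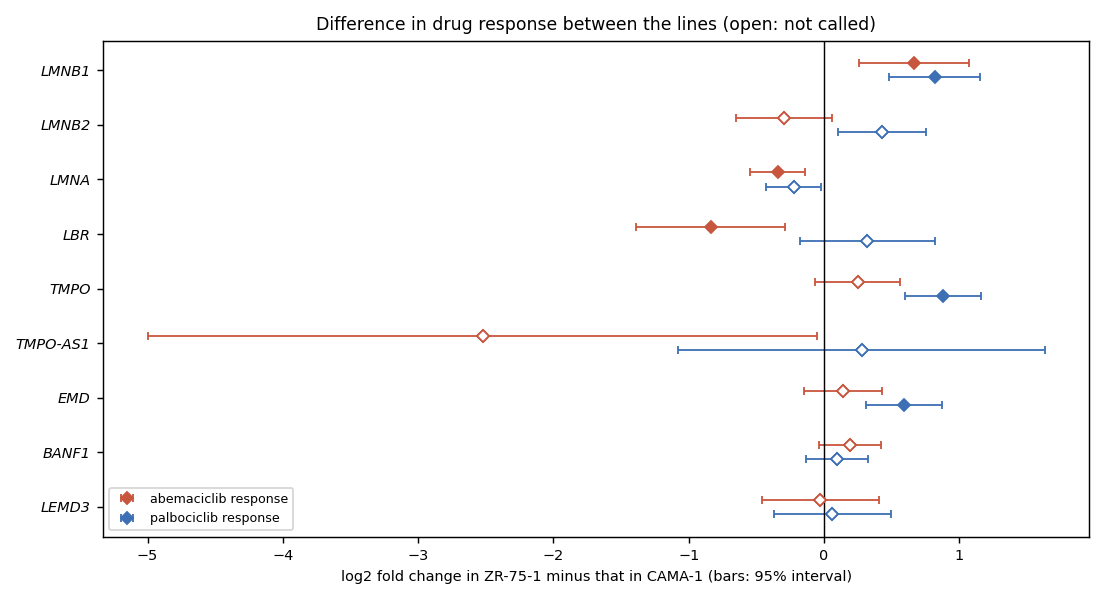
Difference in response between the lines for each gene and drug, as the ZR-75-1 log2 fold change less the CAMA-1 one, with 95% intervals (open symbols, not called). LMNB1 lies above 0 with both drugs (0.67 and 0.82), and LBR below 0 with abemaciclib (−0.84) and not with palbociclib (0.32, not called).

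The gap between the drugs also differed between the lines for 3 of 9 genes (2.8% of all genes), being wider in ZR-75-1 for LBR (−1.16 ± 0.30, adjusted p = 0.0141), LMNB2 (−0.73 ± 0.18, adjusted p = 0.0125) and TMPO (−0.63 ± 0.16, adjusted p = 0.0155). Each of these was lost when some single libraries were left out. LBR was lost without CAMA-1 abemaciclib replicate 2 (−0.86, adjusted p = 0.174), CAMA-1 palbociclib replicate 1, ZR-75-1 abemaciclib replicate 2 or ZR-75-1 palbociclib replicate 3 (0.0570 at the lowest). LMNB2 was lost without CAMA-1 abemaciclib replicate 1 (−0.65, 0.0727), CAMA-1 palbociclib replicate 3 or ZR-75-1 palbociclib replicate 2 (0.0710 at the lowest), and TMPO without CAMA-1 abemaciclib replicate 1 or 2, CAMA-1 palbociclib replicate 1 or 3 or ZR-75-1 abemaciclib replicate 3 (−0.50, 0.120; 0.0539 at the lowest). For LMNB1 the gap between the drugs was −0.93 in CAMA-1 and −1.08 in ZR-75-1, and the difference of −0.15 (−0.59 to 0.28) was not called.

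With DMSO the lines themselves differed in 7 of the 9 genes, where 61.3% of all genes did, so the count was not far from that share. Without TMPO-AS1, which is in the fit only through its DMSO libraries, 4 of 8 genes were lower in ZR-75-1 and 2 higher. ZR-75-1 had 2.43 times the LBR level of CAMA-1 (1.28 ± 0.16, adjusted p = 1.19e-10), 2.35 times that of TMPO-AS1 (1.23 ± 0.38, adjusted p = 0.00452) and 1.83 times that of LEMD3 (0.87 ± 0.15, adjusted p = 1.01e-06). CAMA-1 had the higher level of TMPO (1.59-fold), BANF1 (1.35-fold), LMNB1 (1.33-fold) and LMNA (1.24-fold), with edgeR adjusted p = 3.79e-09, 3.17e-06, 4.60e-04 and 1.70e-04. LMNB2 and EMD were not called, with differences of 0.00 (−0.21 to 0.22) and 0.04 (−0.16 to 0.23). TMPO and TMPO-AS1, which share a start region, thus differed between the lines in opposite directions.

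Across the 18 libraries, the genes whose level followed LMNB1 most closely were DEK, ATAD2, RBMX, CENPU and BUB1B. Pearson's r of log2 CPM after removing the mean of each line was 0.988, 0.984, 0.983, 0.982 and 0.977, as the highest of 9585 genes that averaged 10 counts or more in each line. DEK encodes a chromatin-associated protein, ATAD2 a bromodomain ATPase, RBMX an RNA-binding protein, CENPU a centromere protein and BUB1B a kinase of the spindle checkpoint. Their log2 fold changes with abemaciclib in CAMA-1 were −2.35 for DEK, −1.998 for ATAD2, −1.08 for RBMX, −2.35 for CENPU and −2.39 for BUB1B, and with palbociclib in ZR-75-1 −1.09, −0.73, −0.54, −0.90 and −0.61. In the same ordering TMPO was at place 29 (r = 0.962), LMNB2 at 84 (0.945), LBR at 371 (0.884), EMD at 883 (0.768), BANF1 at 2207 (0.474), LEMD3 at 3554 (0.194) and LMNA at 3617 (0.178), and TMPO-AS1 had too few counts to be placed. These values describe likeness over 6 groups that the libraries share, along with their treatments and depths, and carry no test.

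Other genes of the nuclear envelope were called in both directions, with no more called higher than about the share of all genes. Of 36 listed genes, among them LINC complex genes, torsins, lamin-processing enzymes and heterochromatin proteins, 32 were tested in CAMA-1 and 33 in ZR-75-1. With abemaciclib in CAMA-1, 10 were lower and 4 higher (median log2 fold change −0.12), with palbociclib 10 and 4 (−0.17), and in ZR-75-1 9 and 7 under abemaciclib (0.10) and 5 and 6 under palbociclib (0.03). Over all genes tested the shares called lower were 20.1%, 18.7%, 18.3% and 13.4% in that order and those called higher 20.3%, 18.4%, 17.9% and 14.5%. The 5 lower and 6 higher of 33 in the last comparison were near the shares of all genes. So were the 7 higher of 33 with abemaciclib in ZR-75-1, and the 4 higher of 32 with each drug in CAMA-1 were below those shares. NRM, which encodes the inner nuclear membrane protein nurim, had the largest fall: 48.9 CPM with DMSO in CAMA-1 against 4.52 with abemaciclib and 6.98 with palbociclib, and 16.7 in ZR-75-1 against 0.948 and 5.64 (log2 fold changes −3.46 ± 0.25, −2.78 ± 0.22, −4.09 ± 0.46 and −1.55 ± 0.33, edgeR adjusted p at most 0.000171). SYNE2, which encodes the LINC complex protein nesprin-2, changed by −1.32, −1.02, −2.45 and −1.09, and CBX5, which encodes the heterochromatin protein HP1α and a partner of LBR, by −0.66, −0.54, −0.84 and −0.50, all called. TM7SF2, a sterol reductase gene related to LBR, rose in all 4 (0.65, 1.24, 0.50 and 0.69), its CAMA-1 level being 20.9 CPM with DMSO, 33.1 under abemaciclib and 50.7 under palbociclib, and its ZR-75-1 level 86.7, 123 and 140.1. Among the other genes with the smallest p upward, TOR1AIP2, whose product activates torsin, was called in all 4 (0.42, 0.41, 0.44 and 0.27). TMEM43 was called in CAMA-1 (0.81 and 0.77) and with abemaciclib in ZR-75-1 (0.77), but not with palbociclib there (0.39). DHCR7, of cholesterol synthesis (0.80 and 0.44), and HDAC3, which binds emerin (0.51 and 0.74), were called with both drugs in ZR-75-1 and with neither in CAMA-1.

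Among nuclear pore genes, more were called lower than higher. All 30 listed were tested, and with abemaciclib and palbociclib 16 and 14 were lower in CAMA-1 while ZR-75-1 had 6 and 6, with 0, 0, 1 and 1 higher and medians of −0.43, −0.41, −0.28 and −0.23. Of all genes 20.1%, 18.7%, 18.3% and 13.4% were lower and 20.3%, 18.4%, 17.9% and 14.5% higher, and the 6 of 30 lower in ZR-75-1 with abemaciclib were near that background. NUP62, of the central channel, was lower in all 4, with log2 fold changes of −0.86, −0.71, −0.65 and −0.47 (edgeR adjusted p at most 0.00120). GLE1 (−0.57 and −0.62), SEH1L (−1.13 and −0.77) and NUP188 (−0.71 and −0.87) were lower with both drugs in CAMA-1. TPR, of the nuclear basket (−0.29 and −0.29), and NUP155 (−0.50 and −0.55) were lower with both drugs in ZR-75-1, and GLE1 with abemaciclib (−0.37). NUP155 was also called lower with abemaciclib in CAMA-1 (−0.61), and SEH1L with palbociclib in ZR-75-1 (−0.42). The gene called higher in ZR-75-1 was NUP93 (0.36 and 0.44).

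Proliferation genes were also mostly lower with both drugs in both lines. All 12 listed were tested and all 12 were lower in CAMA-1 under either drug and in ZR-75-1 under abemaciclib. With palbociclib in ZR-75-1, 10 of 12 were lower, and the medians were −2.61, −2.03, −3.44 and −0.94. Of all genes 20.1%, 18.7%, 18.3% and 13.4% were called lower in that order. MKI67, the Ki-67 gene, had 414 CPM in CAMA-1 with DMSO, 43.3 with abemaciclib and 80.0 under palbociclib, and in ZR-75-1 498, 8.65 and 195. TOP2A, the topoisomerase of mitosis, changed by −2.37 and −1.91 in CAMA-1, and in ZR-75-1 by −4.14 and −1.29. In the same order RRM2, of deoxynucleotide synthesis, changed by −4.24, −2.60, −6.06 and −0.98, and AURKB, a mitotic kinase, by −3.27, −2.60, −4.79 and −1.57. Line differences with abemaciclib (ZR-75-1 less CAMA-1) had a median of −0.61 for the 12 genes, 5 called lower and 2 higher. Of all genes 18.2% were called in either direction in this comparison. The same line difference was 0.67 for LMNB1 and −0.30 for LMNB2 (not called). What part the shares of dividing cells had in the levels of the lamina genes was not tested.

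Genes associated with senescence were called in both directions in CAMA-1, and GDF15 and CDKN1A moved in opposite directions in the 2 lines. The list of 16 holds genes known to rise in senescent cells and others, such as HMGB1 and HMGB2, known to be lost from them, and 9 were tested in CAMA-1 and 7 in ZR-75-1. With both kinds on the list, calls in both directions are in part a result of how it was put together. In CAMA-1, 5 were higher and 4 lower with each drug, where 20.3% and 18.4% of all genes were called higher and 20.1% and 18.7% lower. GDF15, a stress-induced cytokine, rose from 6.60 CPM to 56.4 with abemaciclib and 173 with palbociclib (log2 fold change 3.01 ± 0.17 and 4.62 ± 0.15), CDKN1A, the p21 gene, from 9.77 to 40.3 and 32.0 (1.99 ± 0.19 and 1.64 ± 0.19), and GLB1, of lysosomal β-galactosidase, from 55.9 to 104.6 and 96.8 (0.87 ± 0.10 and 0.76 ± 0.10). HMGB2 changed by −3.30 and −2.51, HMGB1 by −0.62 and −0.64 and CDKN2A, the p16 gene, by −0.65 and −0.56. In ZR-75-1, 1 was higher and 5 were lower with abemaciclib, and 0 were higher and 5 lower with palbociclib (edgeR). Of all genes tested in ZR-75-1, 17.9% and 14.5% were called higher and 18.3% and 13.4% lower. GDF15 went down there, from 122 CPM to 13.8 and 39.8 (−3.16 ± 0.15 and −1.62 ± 0.12), as did CDKN1A with abemaciclib, from 145 to 26.2 (−2.48 ± 0.12), and under palbociclib, where its log2 fold change was −1.04 ± 0.10 (edgeR adjusted p = 5.03e-12), a value named after it was seen. HMGB2 changed by −5.02 and −1.94 in ZR-75-1 and HMGB1 by −0.83 with palbociclib, and GLB1 rose by 0.60 with abemaciclib. LMNB1 and HMGB2 therefore fell in all 4 comparisons, whereas GDF15 and CDKN1A were called in opposite directions in the 2 lines with either drug.

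**Figure D5:**
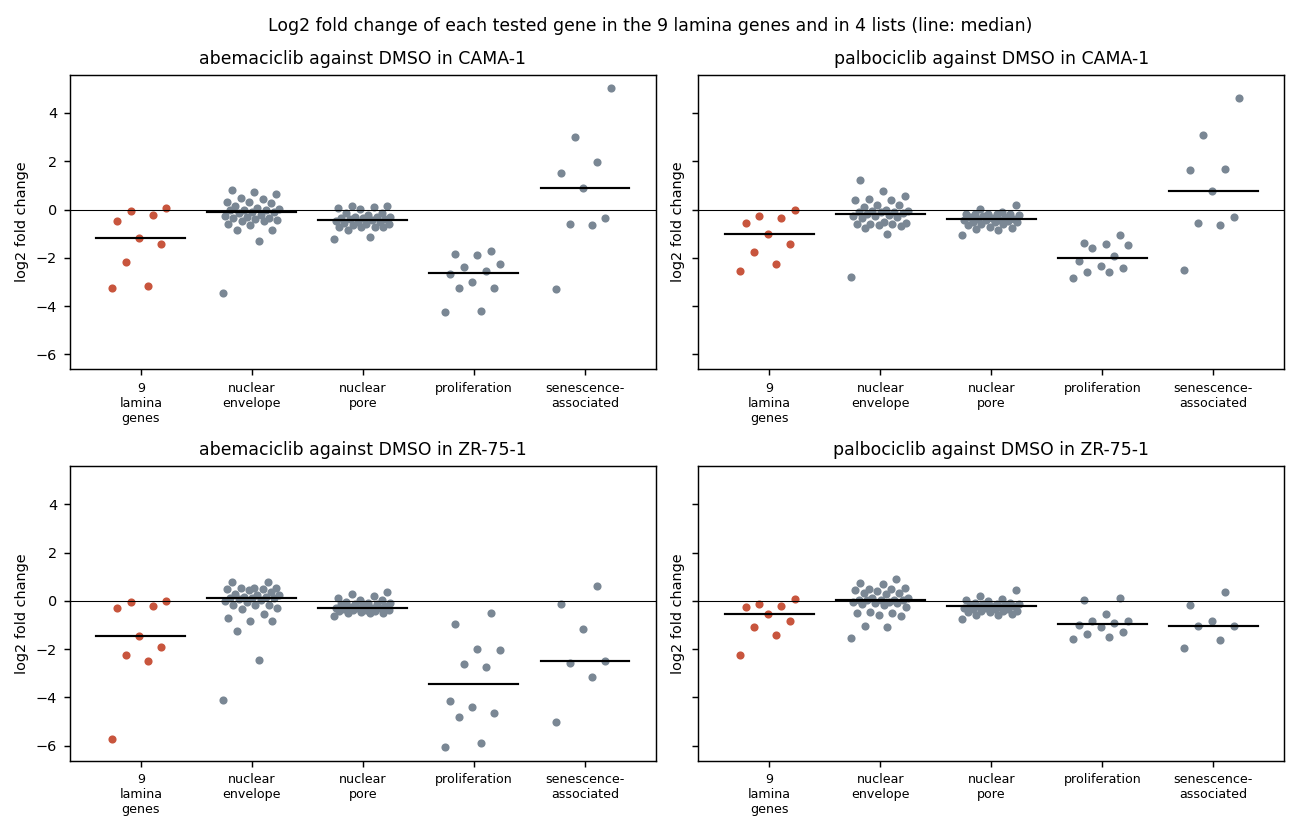
Log2 fold change of each tested gene in the 9 lamina genes (red) and in 4 gene lists (grey), for each drug against DMSO in each line, with a line at the median. In the abemaciclib panel of CAMA-1 the medians are −1.20 for the 9 genes, −0.12 for the nuclear envelope list, −0.43 for nuclear pores, −2.61 for proliferation and 0.87 for the senescence-associated list. The senescence-associated list mixes genes known to rise in senescent cells with genes known to be lost from them.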

How the data were processed

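RNA from CAMA-1 and ZR-75-1 cells was sequenced from transcript 3′ ends in 18 libraries of 6 groups. The authors trimmed single-end reads with BBDuk, aligned them to hg38 with STAR 2.7.5b and counted them per gene with featureCounts 2.0.1 on GENCODE annotation, and the deposited values are these raw counts. The labels and the methods name different versions of the library kit, and strand, multimapping reads and molecular identifiers are not given in the sources used here.

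From the counts, each line was fitted with edgeR 4.0.16 (R 4.3.3) on its 9 libraries, and line differences on all 18, by quasi-likelihood with TMM scaling and filterByExpr, which left 11053 genes in CAMA-1, 11017 in ZR-75-1 and 11987 jointly. The SE is the log2 fold change over the root of F. Within-library ratios were compared by exact permutation (scipy 1.17.1). The fit was tested on simulated data before use. Totals of 2308442 to 4146549 counts set the precision, and replicate libraries differed by more than counting noise (chi-square per degree of freedom 1.83 to 5.18).

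The 9 genes and 4 gene lists were chosen with earlier results of these data known. All 9 genes are named, with at most 3 listed genes of smallest p per list, direction and drug comparison, and the 5 genes most like LMNB1. Alternatives were RLE, upper-quartile and total-count scaling, no mitochondrially encoded genes, no filter, DESeq2 1.42.0, the fit over 18 libraries, a replicate block and each library left out.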

Additional observations from a re-analysis of the deposited data

Results flagged for a closer look

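The responses of several lamina genes differed between CAMA-1 and ZR-75-1 by a test of the difference itself in the edgeR fit over 18 libraries, and each is listed for that reason as log2 fold change in ZR-75-1 less that in CAMA-1. With abemaciclib these were LMNB1 (0.67), LMNA (−0.34) and LBR (−0.84). With palbociclib they were LMNB1 (0.82), TMPO (0.88) and EMD (0.59), and all 3 were called whichever single library was left out. The difference between abemaciclib and palbociclib changed between the lines for LMNB2 (−0.73), LBR (−1.16) and TMPO (−0.63). Each line stands for itself alone, so a difference between the lines cannot be told apart from any other difference between these 2 sets of cultures.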

How the results depend on the processing

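No call of the 9 genes changed direction in any of the settings tried. Of 683 results under another scaling, filter, tool, fit or block, 661 kept their direction and side of the threshold, 6 lost the call, 5 gained one and 11 turned in sign, and of 702 with 1 library left out these were 625, 37, 7 and 33; none that turned had been called. The turned values were, with library totals alone, −0.03997 for LMNA with abemaciclib in CAMA-1, −0.0171 for LBR between the drugs in CAMA-1, 0.13 for the LEMD3 line difference with abemaciclib, and −0.16 and −0.12 for LMNB2 and EMD between the DMSO lines. They were 0.0184 for LMNA with palbociclib and −0.000594 for LBR between the drugs, both in CAMA-1, in the fit over 18 libraries, −0.00586 for LBR in CAMA-1 and 0.00301 for LMNA in ZR-75-1 between the drugs with upper-quartile scaling, 0.0207 for the LEMD3 line difference without mitochondrially encoded genes, and −0.000611 for LMNB2 between the DMSO lines with no filter. With single libraries left out, log2 fold changes ranged from −0.12 to 0.0637 for LEMD3 with abemaciclib in CAMA-1 and −0.11 to 0.0233 in ZR-75-1, −0.0855 to 0.0386 for LMNA with palbociclib in CAMA-1 and −0.0151 to 0.0259 for BANF1 with abemaciclib in ZR-75-1. Between the drugs they ranged from −0.29 to 0.16 for LBR, −2.29 to 1.07 for TMPO-AS1 and −0.0217 to 0.14 for EMD in CAMA-1 and −0.0525 to 0.0263 for LMNA in ZR-75-1. Line differences ranged from −0.0756 to 0.0928 for LEMD3 with abemaciclib, −0.23 to 2.06 for TMPO-AS1 and −0.0504 to 0.29 for LEMD3 with palbociclib, −0.26 to 0.0782 for LEMD3 between the drugs, and −0.0850 to 0.0613 for LMNB2 and −0.0174 to 0.0714 for EMD with DMSO.

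The number of the 9 genes called ranged, with single libraries left out, from 6 to 7 and 6 to 8 for CAMA-1 under abemaciclib and palbociclib, 6 to 7 and 5 to 6 in ZR-75-1, 1 to 2 between the drugs in CAMA-1, 1 to 3 and 3 to 4 for the line differences with abemaciclib and palbociclib and 1 to 3 for that between the drugs, and stayed at 6 between the drugs in ZR-75-1 and 7 between the DMSO lines. Libraries with the same replicate number did not deviate together (r −0.0562 to 0.0254 over 18 pairs), so no pairing by number was seen. A pairing too weak to show in these values is not excluded. With the replicate block the numbers of the 9 genes called were as without it (7, 7, 7, 6, 2, 6, 3, 3, 3 and 7). Of all genes, 4358 were then called with abemaciclib in CAMA-1 in place of 4457. Over all genes, calls between the drugs in CAMA-1 went from 257 to 154 without abemaciclib replicate 3 and 151 without palbociclib replicate 1, and in ZR-75-1 from 1451 to 898 with DESeq2. Library totals alone moved the median of all genes by −0.13 and −0.11 for CAMA-1 under abemaciclib and palbociclib, 0.15 and 0.13 in the line differences and −0.16 between the DMSO lines, and turned the split of higher to lower calls to 1657 and 2958, 1543 and 2710, 1620 and 837, and 1726 and 827 in the first 4 of these. The cause was not tested. Depth limits TMPO-AS1 most, with 2 to 11 counts per drug group outside ZR-75-1 with palbociclib. All ratio results kept their direction with an offset of 1.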

Other observations

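Differences between the drugs were also counted for the gene lists, by edgeR at an adjusted p under 0.05. Set against palbociclib, abemaciclib gave lower levels of all 12 proliferation genes in ZR-75-1 (median log2 difference −2.35) and 7 of 12 in CAMA-1 (−0.72), where 7.94% and 1.53% of all genes were lower and 5.23% and 0.796% higher. In the nuclear envelope list 6 genes were lower and 1 higher with abemaciclib in ZR-75-1, of 33 tested, and 1 lower and 0 higher in CAMA-1, of 32. Among the 30 nuclear pore genes 1 was higher in ZR-75-1 and none was called in CAMA-1. Of the senescence-associated genes 5 of 7 tested were lower with abemaciclib in ZR-75-1 and 2 of 9 in CAMA-1.

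The palbociclib response differed between the lines for 11 of 12 proliferation genes, each with the higher log2 fold change in ZR-75-1 (median difference 1.09), while with abemaciclib 5 fell more and 2 fell less in ZR-75-1. Of all genes 20.3% differed between the lines in their palbociclib response and 18.2% in their abemaciclib response.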
